A study of Mus musculus with 22 samples.

Results

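Of the 43430 genes in the deposited tables, 8 are described here: Sdc1, Scara3, Gem, Phlda1, Tubb2b, Commd10, Agfg1 and Foxb1. They were chosen by their deposited expression values at 4 weeks, which were higher in thymocytes that lost E2a under VavCre and not in those that lost it under LckCre, so the 4-week values of these genes are a description and carry no test. No threshold was given with the choice. The 8-week values were not those named in the choice and were tested, though earlier results of these data were known when it was made. The 22 libraries, in 7 groups, hold RNA of thymocytes sorted as CD45.1+ and as CD4+CD8+, which are called double-positive and are at the stage before selection. The Vav knockout (VavCre E2aF/F, 4 weeks of age, 3 libraries) was set against E2aF/F mice of that age (3 libraries), and the Lck knockout (LckCre E2aF/F, 4 weeks, 3 libraries) against its own E2aF/F mice (3 libraries). At 8 weeks there were 4 libraries from transplanted Vav knockouts, which were sublethally irradiated VavCre E2aF/F mice given wild-type bone marrow as competitor and taken 4 weeks after the transplant. Beside them stood 3 libraries of untransplanted Vav knockouts of 8 weeks and 3 of E2aF/F controls of 8 weeks. All 7 groups carried the floxed E2a alleles, and no Cre was named for the controls. Vav drives Cre across blood cell lineages and Lck in developing T cells. The labels do not say which cells of the transplanted mice bore CD45.1, nor which animals stand behind the replicates, so p-values measure the spread between libraries, which may be technical.

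E2a is the gene Tcf3, whose products E12 and E47 are E proteins, transcription factors that bind the DNA motif CANNTG (the E-box) and direct the early steps of T and B cell development. In thymocytes they hold cells at the double-positive stage until a T cell receptor signal arrives, and their loss in mice leads to thymic lymphoma. The 8 genes do not form a pathway: Sdc1 and Scara3 are membrane proteins of the surface or secretory route, Gem and Phlda1 are genes first known from stimulated T cells, Tubb2b is a tubulin, Commd10 and Agfg1 serve membrane traffic, and Foxb1 is a transcription factor.

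The RefSeq promoter table (GRCm38.p6, 250 bases before to 50 after the start) held 2 of the 8 genes, Sdc1 (chr12:8771146-8771445, plus strand) and Agfg1 (chr1:82839210-82839509, plus strand). They are shown because the deleted factor binds E-boxes, which stand in capitals:
Sdc1: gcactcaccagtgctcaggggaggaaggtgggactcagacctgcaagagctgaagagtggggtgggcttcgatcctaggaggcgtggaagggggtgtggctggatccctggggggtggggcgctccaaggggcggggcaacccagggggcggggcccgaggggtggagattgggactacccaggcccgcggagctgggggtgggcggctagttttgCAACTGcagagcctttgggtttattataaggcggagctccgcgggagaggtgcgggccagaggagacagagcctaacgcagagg
Agfg1: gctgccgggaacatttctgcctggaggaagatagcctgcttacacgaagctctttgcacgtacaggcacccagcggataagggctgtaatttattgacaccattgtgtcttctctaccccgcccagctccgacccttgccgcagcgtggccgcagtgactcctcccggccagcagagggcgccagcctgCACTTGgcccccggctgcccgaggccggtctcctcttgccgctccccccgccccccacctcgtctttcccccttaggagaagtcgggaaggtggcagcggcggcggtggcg
Each window held 1 CANNTG, as CAACTG in Sdc1 with its first base 34 before the start and as CACTTG in Agfg1 with its first base 61 before the start. CANNTG reads the same on both strands, and 72.3% of the 32544 distinct promoters in the table held at least 1. Neither window held CAGCTG, nor on either strand CACCTG (which reads CAGGTG on the opposite strand), the forms preferred by E proteins, and 33.1% of all promoters held at least 1 of these. These matches describe letters only.

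Tcf3 was lower in all 13 knockout libraries than in every control library of its table, with log2 changes of -1.77 (4-week Vav), -1.93 (Lck), -1.79 (transplanted) and -1.63 (8-week Vav), each with a limma adjusted p under 0.05. The steps between low values implied a depth of 5.46 to 37.4 (in units of 1000000 reads) per library, and the Lck libraries were shallower than the 4-week Vav libraries. The double-positive marker list (Cd4, Cd8a, Rag1 and 7 others, all 10 at 1 FPKM or more in every group) summed to 2736 to 3303 FPKM in the 4-week Vav knockout against 3781 to 3880 FPKM in its controls. At 8 weeks the same sum was 1088 to 2980 FPKM in transplanted mice, 1591 to 1979 FPKM in the Vav knockout and 3760 to 4099 FPKM in controls. The early double-negative list summed to 15.1 to 32.7 FPKM in the 4-week Vav knockout against 2.88 to 3.56 FPKM in its controls, and the mature single-positive list to 77.5 to 85.9 against 27.1 to 28.7 FPKM. At 8 weeks the early list summed to 7.43 to 132 FPKM in transplanted mice, 8.72 to 27.8 FPKM in the Vav knockout and 2.48 to 3.87 FPKM in controls, and the mature list to 101 to 277, 69.4 to 129 and 38.5 to 41.4 FPKM in the same groups. Most of the early sum at 4 weeks was Il2ra, the interleukin-2 receptor alpha chain (13.5 to 30.9 FPKM in the knockout, 1.84 to 2.13 FPKM in controls), while Kit, a receptor of early progenitors, had 0.0202 to 0.0464 FPKM in the knockout and 0.143 to 0.238 FPKM in controls. Chromosome 15 holds none of the 8 genes. The median log2 difference of its genes from control was set against that of all autosomal genes. It lay 0.252 to 0.716 higher in the Vav knockout and transplanted libraries, against -0.0194 to 0.0260 in the Lck knockouts and all controls. Transplanted replicate 3 stood farthest from its group, with a median distance of 0.485 (log2) from the other 3, where the other transplanted libraries had 0.214 to 0.319. The part of these shifts in the levels below was not tested, and in bulk RNA fewer cells of a type and less RNA per cell cannot be told apart.

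At 4 weeks all 8 genes lay above every control library in all 3 Vav knockout libraries, a count favoured by choosing genes that were higher there. Of the 10828 genes tested there 19.2% did so, and 7.63% were called higher and 6.08% lower in limma at an adjusted p under 0.05. The log2 differences from control, on the log2(FPKM + 1) scale used throughout, ran over a wide range, 0.76 for Agfg1, 0.90 for Phlda1, 1.37 for Tubb2b, 1.38 for Gem, 1.53 for Commd10, 2.23 for Foxb1, 2.27 for Scara3 and 3.26 for Sdc1. In the Lck knockout none of the 8 (0 of 8) lay wholly above its controls, which follows from choosing genes that were not higher there. Of the 10946 genes tested in that comparison, which leave out Sdc1 and Scara3, 11.7% did so. That share cannot serve as a test of the count, since the count was set by the choice. The differences of the 8 genes ran between -1.13 for Phlda1 and 0.11 for Sdc1. Gem, Tubb2b and Phlda1 lay wholly below their controls there, which 8.27% of genes did; 0.201% were called higher and 0.804% lower. Sdc1 and Scara3 were under 1 FPKM in every Lck library and did not pass the filter on low values, so 6 of 8 passed in that table. All 8 passed in the 4-week Vav and 8-week tables, Sdc1 and Scara3 through knockout libraries alone, since their controls had 0 libraries at 1 FPKM.

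**Figure D1:**
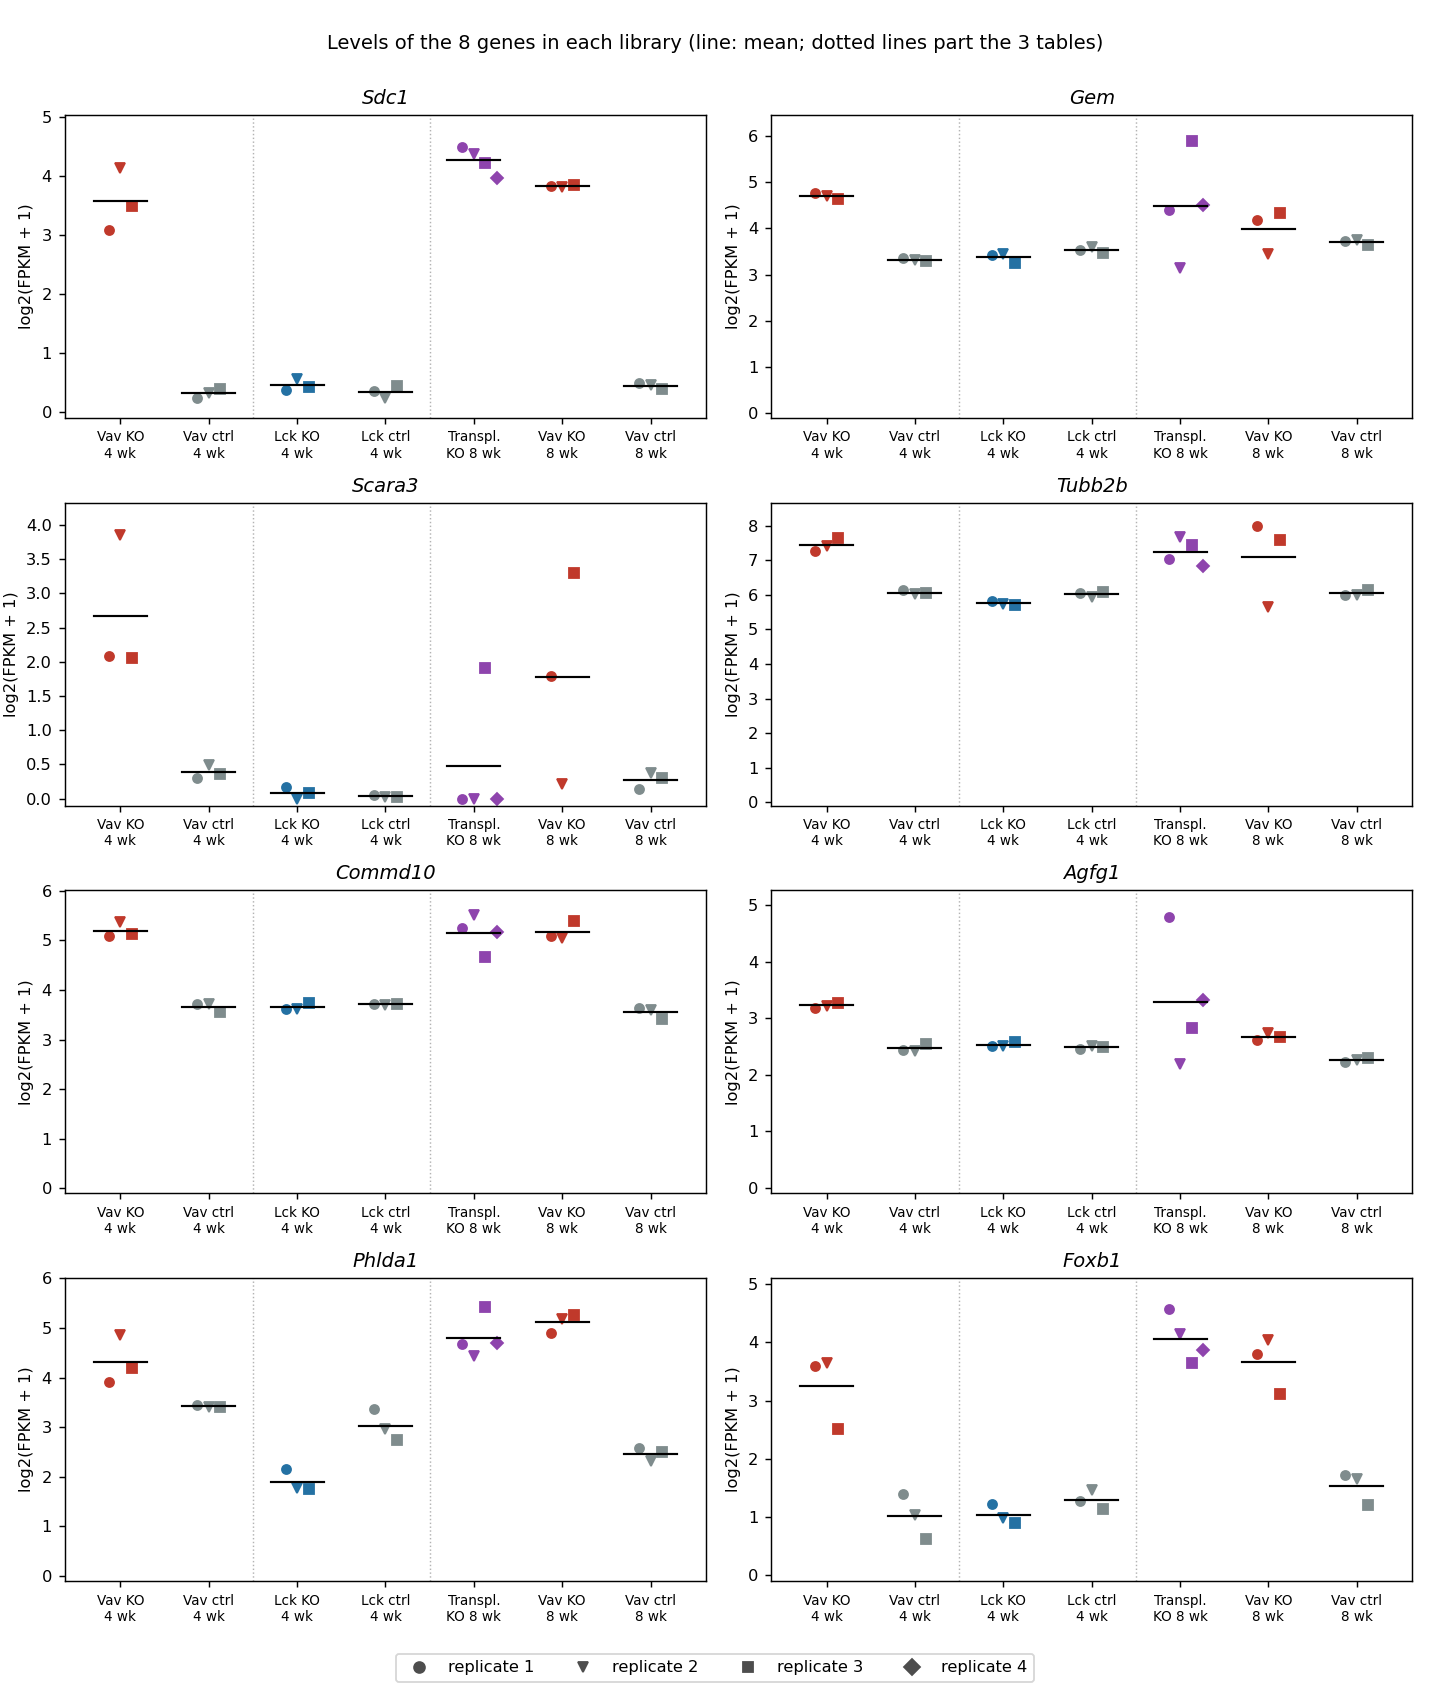
Level of each of the 8 genes as log2(FPKM + 1) in every library, with a point per library, its shape giving the replicate number, and a line at the group mean; dotted lines part the 3 tables. The knockout groups under Vav stand above the control groups for Sdc1, Commd10, Phlda1 and Foxb1 at both ages, while Gem, Scara3, Tubb2b and Agfg1 spread at 8 weeks, and Phlda1 is lowest in the Lck knockout (2.36 to 3.48 FPKM).

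At 8 weeks, whose values were not those named in the choice, the genes divided. Earlier results of these data were known when the genes were chosen, so the calls are no independent replication. In the transplanted Vav knockout 4 of the 8 rose against control, where 4.59% of 11632 genes were called higher and 4.60% lower. In the untransplanted Vav knockout the count was also 4 of 8, where 4.65% were called higher and 4.45% lower. The 4 genes were Sdc1, Commd10, Phlda1 and Foxb1 in both comparisons, which share their 3 control libraries. Sdc1 had to differ, having passed the filter through knockout libraries alone. Gem, Scara3, Tubb2b and Agfg1 did not pass in either comparison. Complete separation above the controls was seen for 5 of 8 genes in transplanted mice (Sdc1, Tubb2b, Commd10, Phlda1 and Foxb1, against 11.5% of genes). In the untransplanted knockout it was also seen for 5 of 8, with Agfg1 in the place of Tubb2b, against 28.9% of genes. Between transplanted and untransplanted Vav knockouts 0 of 8 were called (1 of 8, Sdc1, at an unadjusted p under 0.05), and 0 of 11632 genes overall (0%), with 681 genes at an unadjusted p under 0.05 in limma. Without transplanted replicate 3 the genes called against control came to 3814 in place of 1069 for transplanted mice and to 3535 in place of 1059 for the Vav knockout, with 4 of 8 rising in each as before.

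**Figure D2:**
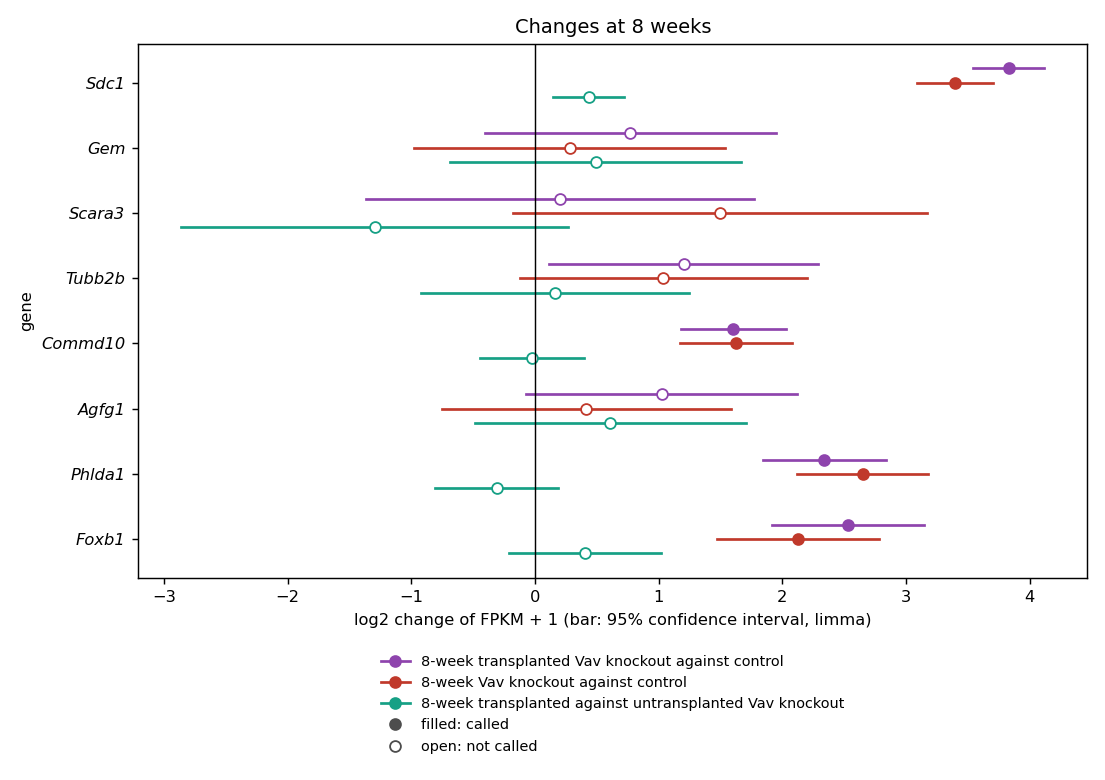
log2 change of FPKM + 1 (x axis) with the 95% confidence interval from limma for each gene (y axis) in the 3 comparisons at 8 weeks; filled points passed an adjusted p of 0.05. Sdc1, Phlda1, Foxb1 and Commd10 have filled points against control in both knockout groups, at 1.60 to 3.83, and every point of the transplanted against the untransplanted knockout is open.

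Sdc1 had the largest log2 difference of the 8 genes in the 4-week Vav knockout and in both 8-week comparisons with control. It encodes syndecan-1, a heparan sulfate proteoglycan of the cell surface that binds growth factors and chemokines and is the plasma cell antigen CD138 (ENSMUSG00000020592, GRCm38 chromosome 12, 8771323 to 8793715, plus strand). At 4 weeks it had 7.48, 16.7 and 10.3 FPKM in the Vav knockout, against 0.185, 0.247 and 0.303 FPKM in its controls. The Lck knockout had 0.295, 0.474 and 0.343 FPKM, against 0.274, 0.176 and 0.355 FPKM in controls, so these groups overlapped. At 8 weeks the values were 21.6, 19.7, 17.8 and 14.7 FPKM in transplanted mice, 13.3, 13.2 and 13.4 FPKM in the Vav knockout, and 0.398, 0.366 and 0.305 FPKM in controls. The knockout libraries were thus set far above the controls, and the 3 untransplanted ones lay close together (SD 0.106 FPKM). The log2 change against control was 3.83 after transplantation (SE 0.128, 95% interval 3.54 to 4.12, limma adjusted p = 8.15e-07) and 3.40 in the untransplanted knockout (SE 0.137, interval 3.09 to 3.70, adjusted p = 4.58e-06). With 0 control libraries at 1 FPKM, Sdc1 entered this test through knockout libraries alone, so a rise was built into being tested and these p-values are no support for it. All 4 transplanted libraries lay above all 3 untransplanted ones, which 3.46% of genes did. That difference of 0.43 (interval 0.15 to 0.72) did not pass limma's adjustment over all genes (unadjusted p from the same fit 0.00755, adjusted p = 0.732).

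Because Sdc1 is a plasma cell antigen, the 12 B cell and plasma cell markers were read beside it. They summed to 87.6 to 173 FPKM in the 4-week Vav knockout against 200 to 219 FPKM in controls, to 123 to 196 FPKM in transplanted mice, 113 to 151 FPKM in the 8-week Vav knockout and 216 to 267 FPKM in its controls. The sums were carried by Ighm, the immunoglobulin M heavy chain gene, at 68.2 to 213 FPKM over the Vav and transplanted libraries and their controls. Other markers of the list differed in direction. Mzb1, a chaperone of antibody secretion, had 6.49 to 25.2 FPKM in the 4-week Vav knockout against 9.73 to 10.7 FPKM in controls, and 3.49 to 21.7 FPKM in transplanted mice, 1.85 to 8.10 FPKM in the 8-week Vav knockout and 0.441 to 1.21 FPKM in its controls. Igkc, the kappa light chain, had 2.11 to 68.4 FPKM in transplanted mice, 0.646 to 20.4 FPKM in the 8-week Vav knockout and 1.43 to 22.2 FPKM in controls. Jchain, the joining chain of secreted antibodies, had 0 to 1.31 FPKM in transplanted mice, 0.0709 to 0.851 FPKM in the 8-week Vav knockout and 0.418 to 0.902 FPKM in controls. Xbp1, a factor of secretory cells, had 10.4 to 11.9 FPKM in the 4-week Vav knockout against 27.1 to 28.7 FPKM in controls. Tnfrsf17, the plasma cell receptor BCMA, was at most 0.326 FPKM in any library. The part of plasma cells in the level of Sdc1 was not tested. Some interleukin-17-producing gamma-delta T cells also carry Sdc1. The list for those cells, 11 of whose 12 genes were in the tables, summed to 9.35 to 17.7 FPKM in the 4-week Vav knockout against 5.43 to 5.997 FPKM in controls. At 8 weeks it summed to 19.5 to 151 FPKM in transplanted mice, 14.4 to 17.9 FPKM in the Vav knockout and 5.85 to 6.91 FPKM in controls. Its member Cd163l1, a scavenger receptor of those cells, spanned 0.192 to 132 FPKM over the transplanted libraries, while Il17a was at 0 in all libraries. Of the 11 genes, 6 reached 1 FPKM in some transplanted library, 4 in some 8-week Vav knockout library and 1 in the controls of that age. At 4 weeks 2 did so in the Vav knockout and 1 in its controls. The part of such cells in the level of Sdc1 was not tested.

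Of the 3 other syndecans, 1 was tested, Sdc4, a syndecan of focal adhesions. At 4 weeks it was called higher in the Vav knockout, with 7.79 ± 4.19 FPKM against 1.11 ± 0.329 FPKM in controls (SD, n = 3 each, log2 change 1.97, SE 0.319, limma adjusted p = 0.0118). Its controls had 1.49, 0.952 and 0.886 FPKM, too few at 1 FPKM to pass the filter. Sdc4 thus entered this test through knockout libraries, so a rise was partly built into being tested. Replicate 2 was the highest of the 3 knockout libraries for both Sdc1 and Sdc4. The call ended without control replicate 2 or 3, the adjusted p reaching up to 0.0535, and Sdc4 was not tested under the mean filter of 5 FPKM. In the Lck knockout Sdc4 differed by 0.17 (adjusted p = 0.544). At 8 weeks it had 11.9, 29.9, 20.04 and 1.10 FPKM in transplanted mice, 11.4, 10.6 and 7.56 FPKM in the Vav knockout, and 3.71, 2.10 and 3.47 FPKM in controls, and neither change passed (adjusted p = 0.240 and 0.275). The nearest protein-coding genes, Pum2 at 18741 bases and Laptm4a at 127948 bases, had log2 changes of -0.064 and 0.055 in the 4-week Vav knockout, neither of which passed.

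Scara3, a class A scavenger receptor family member known from the response to oxidative stress, was uneven between libraries (ENSMUSG00000034463, chromosome 14, 65919394 to 65953935, minus strand). The 4-week Vav knockout libraries had 3.22, 13.4 and 3.17 FPKM, against 0.232, 0.414 and 0.290 FPKM in controls. The Lck knockout had 0.126, 0 and 0.058 FPKM, and its controls 0.0379, 0.0180 and 0.0200 FPKM, which is near 0 throughout. The transplanted libraries at 8 weeks were listed at 0, 0, 2.74 and 0 FPKM, the Vav knockout had 2.47, 0.163 and 8.85 FPKM, and the controls 0.1004, 0.298 and 0.237 FPKM. Only 3 of those 7 knockout libraries thus held the gene above control level, and the 3 transplanted libraries without it had Sdc1 at 14.7 to 21.6 FPKM. The log2 change was 0.20 after transplantation (interval -1.36 to 1.77, limma adjusted p = 0.880) and 1.497 in the untransplanted knockout (interval -0.18 to 3.17, adjusted p = 0.209). The difference between the knockout groups was -1.30 (interval -2.86 to 0.27, adjusted p = 0.853). None of the 4 other scavenger receptors of the family list (0 of 4) passed the filter in any table. Ccdc25, 52786 bases from Scara3, differed by -0.054 in the 4-week Vav knockout (limma adjusted p = 0.510). Clu, on the other side, averaged at most 0.0599 FPKM in any group.

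Scara3 is also found in stroma, so the 13 markers of thymic epithelium and stroma were read beside it. They summed to 14.6 to 27.2 FPKM in the 4-week Vav knockout against 9.41 to 11.2 FPKM in controls, to 15.01 to 26.9 FPKM in transplanted mice, 16.6 to 35.5 FPKM in the 8-week Vav knockout and 9.10 to 9.84 FPKM in its controls. Pecam1, an adhesion molecule of endothelium and blood cells, made 10.997 to 13.1 FPKM of the sum in the 4-week knockout and 7.75 to 9.21 FPKM in its controls. Col1a2, a collagen gene of fibroblasts, had 1.074 to 14.4 FPKM in the 4-week Vav knockout against 0.0131 to 0.0408 FPKM in controls, and 0.0881 to 13.5 FPKM in transplanted mice, 0.769 to 19.99 FPKM in the 8-week Vav knockout and 0.0185 to 0.0317 FPKM in its controls. Pdgfrb, a receptor of mesenchymal cells, had 0.622 to 1.097 FPKM in the 4-week Vav knockout against 0.166 to 0.246 FPKM in controls, and 0.458 to 5.14 FPKM in transplanted mice, 0.863 to 3.93 FPKM in the 8-week Vav knockout and 0.316 to 0.469 FPKM in its controls. Both were thus higher in the 4-week and 8-week Vav knockouts than in their controls. Only 3 of the 13 markers, Pecam1, Col1a2 and Pdgfrb, reached 1 FPKM in any 4-week Vav knockout library. The rest, among them Col1a1, Col3a1 and Pdgfra, stayed under 1 FPKM there. In each 8-week knockout group 4 of the 13 reached it, and in the controls of each age 2 did. Foxn1, the defining factor of thymic epithelium, was at most 0.0709 FPKM in any library, and the keratin gene Krt5 at most 0.0935 FPKM. The part of stromal cells in the level of Scara3 was not tested.

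Gem and Phlda1 are genes that T cells switch on when stimulated. Gem is a small GTPase of the RGK family that restrains voltage-gated calcium channels (ENSMUSG00000028214, chromosome 4, 11704457 to 11714752, plus strand). At 4 weeks it had 26.1, 25.1 and 24.1 FPKM in the Vav knockout, against 9.31, 8.93 and 8.85 FPKM in controls, with the libraries of each group close together. Lck knockout libraries had 9.69, 9.98 and 8.54 FPKM, all just below the 10.6, 11.1 and 9.99 FPKM of controls. At 8 weeks the transplanted libraries had 20.1, 7.82, 58.7 and 21.6 FPKM, the Vav knockout 17.3, 9.92 and 19.2 FPKM, and the controls 12.3, 12.5 and 11.5 FPKM. In each 8-week knockout group replicate 2 lay below all controls and the other libraries above them. The log2 change was 0.77 after transplantation (interval -0.41 to 1.95, limma adjusted p = 0.381; 0.30 without the 58.7 FPKM of replicate 3) and 0.28 in the untransplanted knockout (interval -0.98 to 1.54, adjusted p = 0.765). The knockout groups differed by 0.49 (interval -0.69 to 1.67, adjusted p = 0.878). Rad54b, 88651 bases from Gem, differed by -0.010 in the 4-week Vav knockout (limma adjusted p = 0.947). Cdh17, on the other side, averaged at most 0.181 FPKM in any group.

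Phlda1, a pleckstrin homology-like protein found in T cell hybridomas as an early response to receptor stimulation, lay on opposite sides of its controls in the 4-week knockouts (ENSMUSG00000020205, chromosome 10, 111506286 to 111508645, plus strand). The Vav knockout had 14.0, 28.1 and 17.3 FPKM, against 9.91, 9.62 and 9.59 FPKM in controls. The Lck knockout had 3.48, 2.45 and 2.36 FPKM, against 9.31, 6.81 and 5.73 FPKM in controls. So all Vav libraries lay above and all Lck libraries below their controls, at log2 differences of 0.90 and -1.13. The transplanted mice at 8 weeks had 24.6, 20.6, 42.1 and 24.8 FPKM, the Vav knockout 28.7, 35.5 and 37.6 FPKM, and the controls 5.003, 3.99 and 4.64 FPKM. No knockout library came near the controls, and both changes passed. Phlda1 changed by a log2 of 2.34 after transplantation (SE 0.221, interval 1.84 to 2.84, limma adjusted p = 0.000424) and 2.65 in the untransplanted knockout (SE 0.236, interval 2.12 to 3.18, adjusted p = 0.000413). The knockout groups differed by -0.31 (interval -0.81 to 0.19, adjusted p = 0.862).

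Other stimulation-induced genes did not move as 1 group. Of the 18 genes on that list 11 were tested in the 4-week Vav knockout, where Dusp5, a phosphatase acting on ERK, rose (log2 change 0.34) and Cd5, a restraint on receptor signalling, fell (-0.88), while 9 did not pass. For comparison, 13.7% of all tested genes passed in either direction, and the list's median was -0.089 against -0.0083 over all genes. The Cd5 call held in 9 and the Dusp5 call in 5 of 12 alternative settings. None passed in the Lck knockout (0 of 10, median -0.012 against 0.016 over all genes). In the 8-week Vav knockout 5 of 13 passed, against 9.10% of all genes: Fos (3.18) and Junb (1.15), which encode parts of the AP-1 transcription factor, rose, and Cd69 (-2.78), Egr3 (-1.499) and Egr2 fell. Cd69 is an activation antigen of selected thymocytes, and Egr2 and Egr3 are transcription factors downstream of the T cell receptor. Fos had 0.365, 0.169 and 0.554 FPKM in controls and entered the test through knockout libraries alone, so its rise was built into being tested. Egr2 and Egr3 averaged 0.240 and 0.127 FPKM in the knockout, under the 1 FPKM of the filter, and 1.41 and 2.19 FPKM in controls. They did not enter the test through the knockout libraries, so their falls were partly built into being tested. The calls other than Fos held in 6 to 9 of 17 alternatives. In transplanted mice 0 of 13 passed (9.19% of all genes). Rrad, the 1 RGK relative of Gem tested, did not pass in any comparison (0.38 in the 4-week Vav knockout, adjusted p = 0.0739), nor did Phlda3, the 1 tested relative of Phlda1 (0.61, adjusted p = 0.135). Nap1l1, a histone chaperone gene 8135 bases from Phlda1, rose by 0.35 in the 4-week Vav knockout (SE 0.0894, adjusted p = 0.0484) and differed by 1.41 in the 8-week one (adjusted p = 0.0622).

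Tubb2b, a beta-tubulin best known from developing neurons, was the most abundant of the 8 genes in every group on the FPKM scale, which is per gene length (ENSMUSG00000045136, chromosome 13, 34126748 to 34130466, minus strand). At 4 weeks it had 152, 168 and 199.7 FPKM in the Vav knockout, against 69.3, 64.3 and 64.9 FPKM in controls. Its level in the Lck knockout was 55.3, 52.5 and 51.6 FPKM, all below the 66.1, 60.4 and 66.8 FPKM of controls. At 8 weeks the transplanted libraries had 129.7, 202, 174 and 114 FPKM, the Vav knockout 253, 49.4 and 193 FPKM, and the controls 62.4, 62.9 and 70.1 FPKM. Of these 7 knockout libraries only untransplanted replicate 2 was not above the controls; it lay below them. The log2 change was 1.201 after transplantation (SE 0.482, interval 0.12 to 2.29, limma adjusted p = 0.153) and 1.04 in the untransplanted knockout (SE 0.515, interval -0.12 to 2.20, adjusted p = 0.209). Without untransplanted replicate 2 both changes passed, at 1.201 (adjusted p = 0.0163) and 1.75 (adjusted p = 0.0102). Over all alternatives the adjusted p ran between 0.0163 and 0.340 for transplanted mice and between 0.0102 and 0.504 for the untransplanted knockout.

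That library, replicate 2 of the 8-week Vav knockout, separated the genes. It was at or below control level for Gem, Scara3 and Tubb2b, while its Sdc1 (13.2 FPKM), Commd10 (32.01 FPKM), Phlda1 (35.5 FPKM) and Foxb1 (15.5 FPKM) stood far above the controls. Its implied depth was 14.4 and its chromosome 15 shift 0.567, against depths of 19.2 and 18.7 (in units of 1000000 reads) and shifts of 0.716 and 0.656 in replicates 1 and 3.

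**Figure D3:**
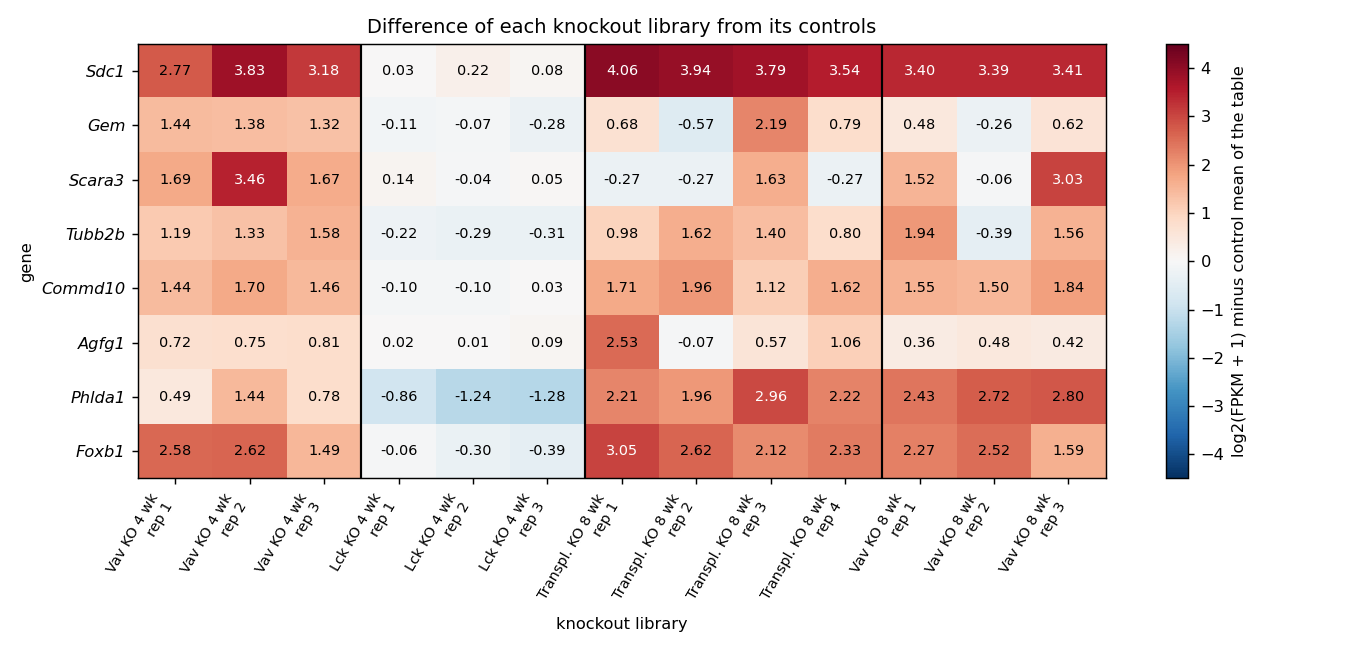
Difference of log2(FPKM + 1) in each of the 13 knockout libraries (columns) from the mean of the controls of its table, for the 8 genes (rows); red is above and blue below control. The row of Sdc1 is red in every Vav and transplanted library (2.77 to 4.06), while replicate 2 of the 8-week Vav knockout is pale or blue for Gem (-0.26), Scara3 (-0.06) and Tubb2b (-0.39).

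Tubb2a, the next gene on the chromosome at 48740 bases, followed Tubb2b. It rose in the 4-week Vav knockout, to 128 ± 19.0 FPKM against 65.3 ± 0.203 FPKM in controls (SD, n = 3 each, log2 change 0.95, SE 0.107, limma adjusted p = 0.00421, called in all 12 alternatives). In the Lck knockout it was at 53.4 ± 5.54 FPKM against 70.7 ± 5.29 FPKM in controls (-0.40, adjusted p = 0.128). At 8 weeks it had 88.5, 113, 101 and 106 FPKM in transplanted mice, 168, 45.7 and 145 FPKM in the Vav knockout, and 63.0, 66.0 and 66.4 FPKM in controls, with the same replicate 2 below the controls (adjusted p = 0.317 after transplantation and 0.294 without it). Of the 2182 bases of the longest Tubb2b transcript, 33.4% of all 50-base stretches also occur in a Tubb2a transcript, and 0 to 0.188% in those of the other 6 beta-tubulins. The sources used here do not say how reads shared by both genes were counted, so their separate levels are uncertain. Tubb3, a neuronal beta-tubulin, also rose at 4 weeks (0.58, adjusted p = 0.0351, called in 6 of 12 alternatives). The abundant Tubb5 (395 ± 25.4 against 382 ± 23.9 FPKM, log2 change 0.049) and Tubb4b (127 ± 19.1 against 125 ± 11.8 FPKM, 0.026) did not pass. In all 2 of 5 beta-tubulins tested rose in the 4-week Vav knockout, against 7.63% of all genes, with a median of 0.049 against -0.0083 over all genes, and 0 of 4 passed in the Lck knockout and 0 of 5 in each 8-week comparison. Psmg4, a proteasome assembly gene 32497 bases on the other side, rose by 0.41 at 4 weeks (adjusted p = 0.0340).

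**Figure D4:**
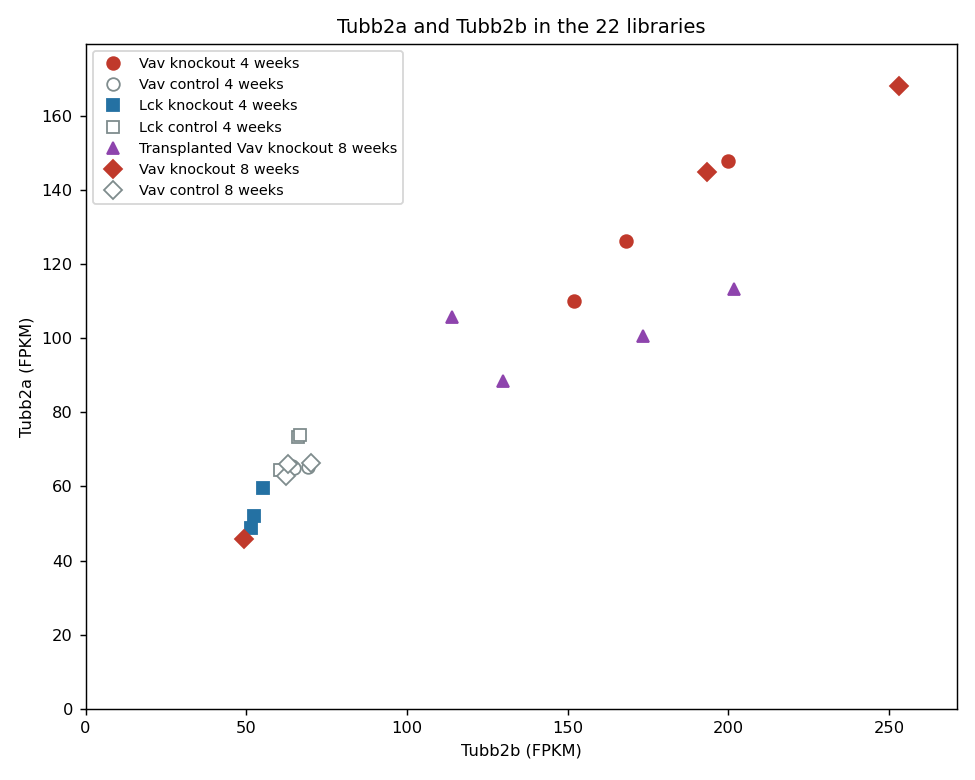
Tubb2a against Tubb2b, both in FPKM, with a point for each of the 22 libraries and a symbol for each group. Controls sit near 60 to 75 FPKM on both axes; 9 of the 10 Vav and transplanted knockout libraries lie above and to the right of them, and the remaining one (49.4 and 45.7 FPKM) and the Lck knockouts lie below.

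Commd10 and Agfg1 act in membrane traffic. Commd10 is a COMM domain protein of the Commander complex, which returns receptors from endosomes to the cell surface (ENSMUSG00000042705, chromosome 18). At 4 weeks it had 33.2, 40.1 and 33.7 FPKM in the Vav knockout, against 12.1, 12.1 and 10.7 FPKM in controls. Lck knockout libraries had 11.2, 11.2 and 12.4 FPKM, overlapping the 12.2, 11.97 and 12.1 FPKM of controls. At 8 weeks it had 37.2, 44.6, 24.5 and 35.0 FPKM in transplanted mice, 33.2, 32.0 and 40.7 FPKM in the Vav knockout, and 11.3, 11.1 and 9.69 FPKM in controls. The group means of the 3 knockouts under Vav were thus 35.7, 35.3 and 35.3 FPKM, and no library of theirs fell below 24.5 FPKM. Commd10 changed by a log2 of 1.60 after transplantation (SE 0.188, interval 1.18 to 2.03, limma adjusted p = 0.00123) and 1.63 in the untransplanted knockout (SE 0.201, interval 1.17 to 2.08, adjusted p = 0.00191). The knockout groups differed by -0.023 (interval -0.45 to 0.40, adjusted p = 0.984).

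All 9 other COMMD genes were tested, and 0 of 9 passed in either 4-week comparison, with medians of 0.082 (Vav) and 0.065 (Lck) against -0.0083 and 0.016 over all genes. At 8 weeks 1 of 9 rose in each comparison, where 4.59% (transplanted) and 4.65% (Vav knockout) of all genes rose. Commd3 rose in transplanted mice (0.49, adjusted p = 0.0486, called in 4 of 17 alternatives), and Commd5, on chromosome 15, rose in the Vav knockout (0.75, adjusted p = 0.0390, called in 8 of 17). Sema6a, whose nearer end lies 1313 bases from Commd10, averaged at most 0.119 FPKM in any group. Arl14epl, on the other side, averaged at most 0.0156 FPKM.

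Agfg1 carries an ARF GTPase-activating domain and takes part in endocytic sorting (ENSMUSG00000026159, chromosome 1, 82839483 to 82901182, plus strand). It had the smallest 4-week difference, with 8.08, 8.31 and 8.68 FPKM in the Vav knockout against 4.43, 4.34 and 4.82 FPKM in controls. The Lck knockout had 4.69, 4.66 and 4.96 FPKM, overlapping the 4.505, 4.71 and 4.64 FPKM of controls. At 8 weeks it had 26.6, 3.55, 6.11 and 8.94 FPKM in transplanted mice, 5.12, 5.64 and 5.37 FPKM in the Vav knockout, and 3.67, 3.77 and 3.88 FPKM in controls. The untransplanted libraries were close together and all above control, and the transplanted ones spread widely, with replicate 2 below all controls and replicate 1 far above every other library. The log2 change was 1.02 after transplantation (interval -0.07 to 2.12, limma adjusted p = 0.218) and 0.42 in the untransplanted knockout (SE 0.521, interval -0.76 to 1.59, adjusted p = 0.619). With only the untransplanted knockout and control libraries in the fit, their change passed (limma adjusted p = 0.00458). That fit called 5087 of 11632 genes, 2598 of them higher, so a call there says little of Agfg1 in particular. Over all alternatives the adjusted p of Agfg1 in the untransplanted knockout against control ran up to 0.736. The knockout groups differed by 0.61 (interval -0.49 to 1.70, adjusted p = 0.873).

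Its closest relative Agfg2 went the other way. It fell to 11.2 ± 1.05 FPKM in the 4-week Vav knockout against 20.4 ± 1.14 FPKM in controls (SD, n = 3 each, log2 change -0.82, SE 0.0798, adjusted p = 0.00294, called in all 12 alternatives). It also fell in the Lck knockout, to 13.4 ± 0.325 FPKM against 18.7 ± 0.225 FPKM in controls (-0.45, SE 0.0388, adjusted p = 0.0119, called in 6 of 12). Agfg2 was the 1 gene called among 14 ARF GTPase-activating genes tested in the Vav table and among 13 in the Lck table. At 8 weeks Smap2 (-0.55) and Git2 (-0.60) fell in transplanted mice, and Git2 (-0.66) fell and Asap1 (0.50), on chromosome 15, rose in the Vav knockout, each among 15 tested. Asap1 averaged 0.868 FPKM in controls and entered the test through knockout libraries. Over all genes 6.08% were called lower in the 4-week Vav and 0.804% in the Lck comparison, and 9.19% and 9.10% were called in either direction in the transplanted and the 8-week Vav comparison. Each of these 8-week calls was lost in some of 17 alternatives, the adjusted p running up to between 0.0988 and 0.185.

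Foxb1, a forkhead transcription factor known from the developing hypothalamus of the mouse, is barely expressed in control thymocytes (ENSMUSG00000059246, chromosome 9, 69757710 to 69760940, minus strand). At 4 weeks it had 11.1, 11.5 and 4.71 FPKM in the Vav knockout, against 1.63, 1.06 and 0.537 FPKM in controls. Its values in the Lck knockout were 1.35, 0.978 and 0.860 FPKM, overlapping the 1.43, 1.74 and 1.19 FPKM of controls. At 8 weeks it had 22.8, 16.7, 11.5 and 13.5 FPKM in transplanted mice, 12.9, 15.5 and 7.69 FPKM in the Vav knockout, and 2.29, 2.13 and 1.32 FPKM in controls. Every knockout library under Vav stood above every control. The log2 change was 2.53 after transplantation (SE 0.273, interval 1.92 to 3.14, limma adjusted p = 0.000775) and 2.13 in the untransplanted knockout (SE 0.292, interval 1.47 to 2.78, adjusted p = 0.00320). The knockout groups differed by 0.40 (interval -0.21 to 1.02, adjusted p = 0.858). Of the 22 other forkhead genes on the family list, 12 were tested and 0 of 12 passed in any comparison. Over all genes 13.7% passed in the 4-week Vav, 9.19% in the transplanted and 9.10% in the 8-week Vav comparison. Bnip2, 228525 bases from Foxb1, differed by -0.094 in the 4-week Vav knockout (limma adjusted p = 0.425).

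Placed in order of group means, which crosses tables and is only descriptive, the genes fell into separate patterns. For Sdc1 and Foxb1 the transplanted mice were highest, then the 8-week and the 4-week Vav knockouts. The ranges of Foxb1 overlapped along those 3 groups, and those of Sdc1 overlapped only between the ages. For Commd10 and Tubb2b the 4-week Vav knockout, the 8-week one and the transplanted mice followed each other with overlapping ranges, and the next group below, a control group, did not overlap the transplanted mice. For Phlda1 the 8-week Vav knockout was highest and overlapped the transplanted mice, and the 4-week Vav knockout, the 4 control and Lck groups followed, the Lck knockout last. For Gem and Agfg1 the transplanted mean was highest through a single library each, replicate 3 and replicate 1, and the 4-week Vav knockout came next.

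To find genes with a like profile, the 13 knockout libraries, each as its difference from the control mean, were compared by the root mean square difference (RMS, log2) across 9890 protein-coding genes, a description with no test. Among the 8 genes the closest pairs were Tubb2b with Commd10 (RMS 0.655) and Commd10 with Foxb1 (0.770), and the farthest was Sdc1 with Gem (2.52). Outside them, Sdc1 was nearest to Myo1e, an unconventional myosin (0.807), which averaged 3.94, 0.135, 10.1 and 4.91 FPKM in the 4-week Vav, Lck, transplanted and 8-week Vav knockouts and at most 0.0851 FPKM in any control group. The next was Nr1h5 (0.868). Foxb1 was nearest to Notch1, the receptor that drives T cell commitment (0.564), which had 101, 44.5, 64.4 and 43.6 FPKM in transplanted mice, 65.8, 87.8 and 32.0 FPKM in the 8-week Vav knockout, and 9.97, 10.6 and 11.6 FPKM in controls. Fbxw8, a ubiquitin ligase component, came second for both Foxb1 (0.625) and Phlda1 (0.725), for which Kcnf1, a potassium channel gene, came first (0.670). Commd10 was nearest to Zdhhc2, a palmitoyltransferase (0.282), and Prr13 (0.342), which lies on the raised chromosome 15. Agfg1 was nearest to P2rx7, an ATP-gated ion channel (0.268), and Tmsb10, an actin-binding thymosin (0.284). For Tubb2b the nearest were Tubb2a (0.458) and Socs3, a feedback inhibitor of cytokine signalling (0.510). Gem was nearest to Mtmr10 (0.498) and the integrin chain gene Itgam (0.507). Scara3 had no close neighbour, Lynx1 (0.957), also on chromosome 15, and Ramp3 (0.964) being the nearest.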

How the data were processed

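Per the labels' protocols, RNA of the sorted cells came from RNeasy columns and libraries from NuGEN's Ovation Ultralow kit. The authors deposited 3 tables of FPKM values (fragments per kilobase and 1000000 reads), each over 43430 genes, of which 42462 matched a symbol. The submitters' processing notes name Trimmomatic 0.33, STAR, HTSeq 0.6.1, DESeq2 and the mm10 build, without role or order; gene lengths, annotation and strand setting are not given in the sources used here. No value column was left unused (0). The tables were normalized separately, so tests stayed within a table and levels across tables are descriptive.

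FPKM values are not counts, so no count test was run; implied depths come from the step between low values and are approximate. Genes that reached 1 FPKM in 3 or more libraries of a table were tested on log2(FPKM + 1), a scale that understates changes of low genes, with limma 3.58.1 (trend) in R 4.3.3. The Benjamini-Hochberg adjustment ran over all genes tested, at a threshold of 0.05. The 10 libraries of 8 weeks shared 1 fit, as did the 6 libraries of each 4-week table. The procedure was tested on simulated data. Alternatives were a pseudocount of 0.1, no filter, a mean filter of 5 FPKM, scaling to the same sum, median-of-ratios scaling, a replicate block, fits of only the 2 groups compared, and leaving out each library. Figures and joins used python 3.11 with pandas 2.3.3.

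The 8 genes and the gene lists were chosen with earlier results of these data known. Besides them, the text names Tcf3, called genes of each list (at most 4 values a list and comparison), the 2 nearest protein-coding profiles and the nearest genes within 250 kb. Relatives that did not pass and Egr2 were named after their values were seen. Among the libraries 0 pairs held identical values, and no correlation between any pair exceeded 0.997.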

Additional observations from a re-analysis of the deposited data

Results flagged for a closer look

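Scara3 in transplanted Vav knockouts had 1 library far from the rest: replicate 3 had 2.74 FPKM, and the other 3 were listed at 0. Chance alone can mark a group in this way, and how often it does so among values at 0 was not tested. The same library stood farthest from its group over all genes.

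Gem, Tubb2b and Phlda1 lay on opposite sides of their controls in the 4-week knockouts, with every library of the Vav knockout above and every library of the Lck knockout below. The log2 difference of Gem was 1.38 in the Vav knockout and -0.15 in the Lck knockout. That of Tubb2b was 1.37 in the Vav knockout and -0.27 in the Lck knockout, and that of Phlda1 was 0.90 in the Vav knockout and -1.13 in the Lck knockout. The difference between the knockouts was not tested, since both comparisons entered the choice of the genes.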

How the results depend on the processing

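Sdc1, Commd10, Phlda1 and Foxb1 were called higher under all 17 alternatives in both 8-week comparisons with control. The number of the 8 genes called lay between 4 and 5, Sdc1 among them. Sdc1 passed the filter of 1 FPKM through knockout libraries alone, so its calls under that filter are no support for a rise. Tubb2b was called in 2 of 17 for transplanted mice and in 1 of 17 for the Vav knockout, and Agfg1 in 1 of 17 for the Vav knockout. The Agfg1 call came with only the 2 groups compared in the fit, where 5087 of 11632 genes were called. No log2 change of these genes that was called changed sign. Of the uncalled ones, Scara3 in transplanted mice became -0.38 with a pseudocount of 0.1. Between transplanted and untransplanted knockouts, Commd10 became 0.0081 with scaling to the same sum, 0.14 without transplanted replicate 3 and 0.081 without Vav knockout replicate 3, and Tubb2b became -0.55 without Vav knockout replicate 2. Scara3 was not tested in 4 of the 17 alternatives.

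Counts over all genes moved more. The 4-week Vav comparison called 1484 genes, 927 with the mean filter of 5 FPKM, 894 with the replicate block and 490 to 1560 when leaving out 1 library. The Lck comparison called 110, 63 without a filter, 4 with the block and 2 to 83 when leaving out 1 library. The 8-week Vav comparison called 1059, 653 with the mean filter, 568 with the block, 5087 with only its 2 groups and 142 to 3535 when leaving out 1 library. The transplanted comparison called 1069, 575 with the mean filter, 568 with the block, 522 with only its 2 groups and 199 to 3814 when leaving out 1 library. Both upper ends came without transplanted replicate 3 and both lower ends without control replicate 2. Transplanted against untransplanted knockouts gave 0, 3 without a filter and 0 to 5 when leaving out 1 library. The cause of these moves was not tested.

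Scaling to the same sum moved the 4-week Vav split to 603 higher and 1003 lower (826 and 658 as deposited) and the Lck split to 4 and 87 (22 and 88), and shifted the median of all genes at 8 weeks in the Vav knockout by -0.119 (log2). Same-numbered libraries correlated at -0.109 to 0.181 in their deviations, so no strong shift shared by number was seen. The labels do not say whether the numbers pair the libraries. With the replicate block 4, 4 and 0 of the 8 genes were called, as without it. With 3 or 4 libraries a group and low depth in part of them, small changes of genes under 1 FPKM could not be detected.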
